A study of Mus musculus with 28 samples.

Results

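Of 14 Emu-myc lymphomas profiled before and after Adriamycin (ADR, doxorubicin), 5 were grouped as strong and 5 as weak interferon responders, and the other 4 formed a middle set. The lymphomas were selected on the measured response itself. A score was taken per lymphoma as the mean ADR minus untreated change of Ifit1, Rtp4 and Usp18, each read by its brightest probe set, and the 5 highest and 5 lowest scores made the groups. Each group therefore holds 10 of the 28 arrays. Because the change chose the groups, every change given here is a description with no test. Tests were made on untreated levels of genes outside the interferon-stimulated lists (stimulated genes, GTPases and chemokines) and on array quality.

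All lymphomas came from lymph nodes of C57BL/6 mice carrying the Emu-myc transgene, in which an immunoglobulin heavy-chain enhancer drives Myc in B-lineage cells. All had also received Bcl2, an inhibitor of apoptosis, through the retroviral vector MSCVpuro, with puromycin selection, so strong, middle and weak lymphomas alike are Myc;Bcl2. The cells grew on gamma-irradiated NIH 3T3 fibroblasts as feeders and were either left untreated or given 0.05 µg/ml ADR for 5 days. Each lymphoma has 1 untreated and 1 ADR array, so a change rests on 1 pair and the spread within a group is the spread between lymphomas. The labels name no sort that would part lymphoma cells from other cells, and in such bulk RNA fewer cells of a type and less RNA per cell cannot be told apart. Earlier-series arrays, described as re-analysed, supply 11 of the lymphomas, of which 4 are strong, 3 middle and 4 weak.

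Type I interferons are secreted proteins that bind the Ifnar1 and Ifnar2 receptor chains, whose kinases signal to the nucleus. Stat2 and Irf9 act there in a factor that binds an interferon response element in the promoters of interferon-stimulated genes. The products of those genes block viral replication, sense foreign nucleic acids and, as Usp18 does at the receptor, dampen the signal. DNA damage and senescence are known settings in which nucleic acid sensors can start this response without a virus. Trex1 and Isg15 are not analysed here, because the array annotation lists no probe set with that gene alone.

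Stretches of promoter are shown for 3 interferon-stimulated genes whose changes did not overlap between the strong and weak groups and which carry the core of such an element. The 10-base pattern GAAANNGAAA, or TTTCNNTTTC on the other strand, was searched in the 250 bases before each gene's start (RefSeq, build GRCm38.p6), and overlapping matches were counted. It was found in 978 of 32851 promoter entries (2.98%) and in 12 of the 45 interferon list genes with a promoter entry (26.7%). The first share counts entries and the second counts genes with a match in any of their entries, so they are not on the same unit. Capitals mark the matches. The stretches run 5′ to 3′ on the strand of the gene, Ifit1 on the plus strand at chr19:34640760-34640838, Oas1a on the minus strand at chr5:120907526-120907570 and Rsad2 on the minus strand at chr12:26456538-26456597.
Ifit1: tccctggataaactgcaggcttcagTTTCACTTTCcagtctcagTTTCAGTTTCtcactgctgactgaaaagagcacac
Oas1a: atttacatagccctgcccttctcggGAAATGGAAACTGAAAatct
Rsad2: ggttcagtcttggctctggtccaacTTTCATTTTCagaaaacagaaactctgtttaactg
Ifit1 held 2 matches, Oas1a 2 that overlap and Rsad2 1. Of the 9 interferon list genes with no overlap between the groups, 6 had a promoter entry and 3 of these a match. A match is a stretch of letters and says nothing of which factor was bound in these cells.

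By score, the strong lymphomas were 3769 (4.46), 5043 (3.18), 5766 (2.91), 3594 (2.90, all log2 changes averaged over the 3 genes) and 1570 (2.84). The middle lymphomas were 9584 (2.59), 7050 (2.33), 2581 (2.31) and 1467 (2.21). The weak lymphomas were 5560 (1.89), 6054 (1.36), 9583 (1.31), 2949 (-0.17) and 403 (-0.48). The last strong and first middle lymphoma thus lay at 2.84 and 2.59, and the last middle and first weak one at 2.21 and 1.89. Lymphoma 3769 stood above all others, and only 2949 and 403 had a score below 0. In the sentences that follow, values are given in this order within each group.

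Ifit1 encodes a protein that binds viral RNA. Its untreated log2 level was 3.33, 3.34, 3.18, 3.48 and 2.92 in the strong lymphomas and 6.23, 3.92, 3.32, 3.03 and 6.44 in the weak ones. After ADR it was 8.38, 5.72, 5.86, 6.16 and 4.61 in the strong and 7.82, 5.44, 4.73, 3.39 and 6.78 in the weak lymphomas. Every strong lymphoma started near the low end of the scale, while 5560 and 403 of the weak group started high, and the ADR levels overlapped. The mean change was 2.90 ± 1.27 (SD, n = 5) in the strong and 1.05 ± 0.64 in the weak group.

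Rtp4 encodes a transmembrane chaperone for receptors that is strongly interferon-inducible. Its untreated level was 6.65, 3.60, 4.35, 4.54 and 4.38 in the strong lymphomas and 7.79, 5.49, 5.37, 4.75 and 10.13 in the weak ones. The ADR level was 10.51, 7.39, 7.77, 7.62 and 8.02 in the strong and 10.16, 7.18, 6.45, 4.57 and 9.18 in the weak group. Untreated and ADR levels both overlapped between the groups, and 403 had the highest untreated level of all 14 lymphomas. The change averaged 3.56 ± 0.32 (SD, n = 5) against 0.80 ± 1.35. The gene has a second, dimmer probe set, on which the mean changes were -0.04 ± 0.30 and -0.14 ± 0.52, so the contrast seen for Rtp4 rests on the brighter probe set.

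Usp18 encodes the protease that removes Isg15 from proteins and also blocks signalling at Ifnar2. Untreated, it measured 4.75, 4.61, 5.32, 3.83 and 3.86 in the strong lymphomas against 7.58, 6.17, 3.76, 5.35 and 9.25 in the weak ones. After ADR it measured 9.22, 7.98, 7.93, 6.76 and 7.06 against 9.29, 7.04, 5.21, 4.66 and 8.42. The weak lymphomas 5560 and 403 held as much Usp18 after ADR as most strong ones, and had held more than any strong lymphoma without it. The change averaged 3.32 ± 0.71 (SD, n = 5) in the strong and 0.50 ± 1.19 in the weak group.

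Averaged over the 3 genes, the untreated level was 4.14 ± 0.48 (SD, n = 5) in the strong, 5.94 ± 0.86 (n = 4) in the middle and 5.91 ± 1.93 (n = 5) in the weak group. After ADR it was 7.40 ± 1.13, 8.30 ± 1.02 and 6.69 ± 1.97. The middle lymphomas thus reached the highest mean level after treatment although their change was smaller than that of the strong ones. The untreated level enters the change with a minus sign, so these levels are part of the rule and carry no test.

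**Figure D1:**
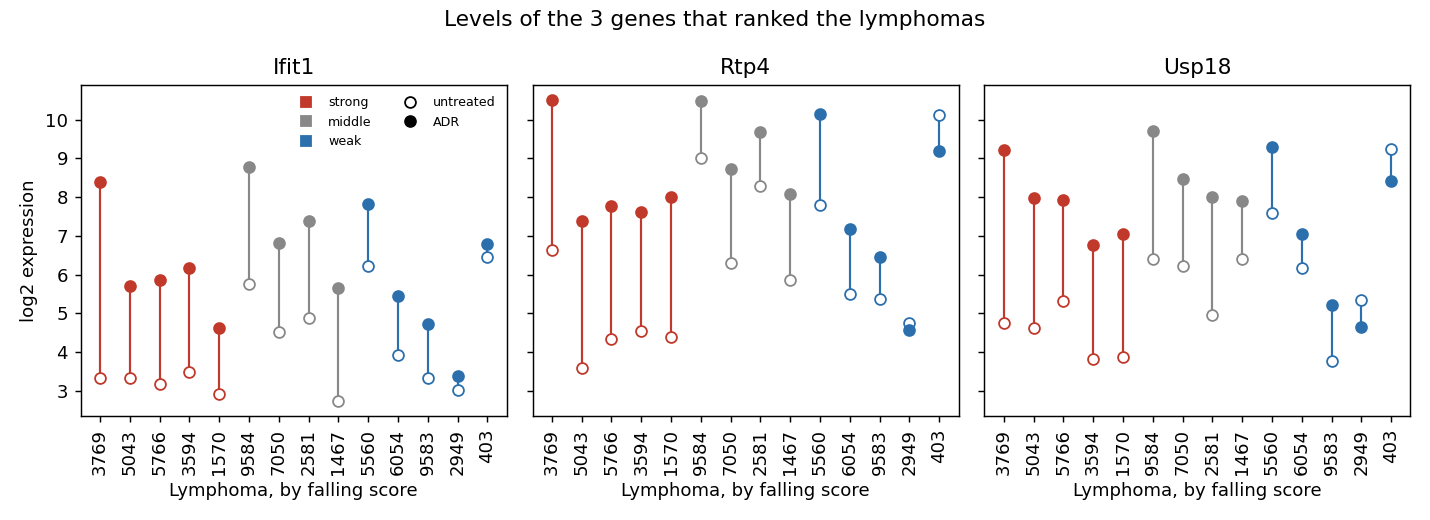
Log2 expression of Ifit1, Rtp4 and Usp18 (vertical axis) in each of the 14 lymphomas, ordered by falling score, with open circles for untreated and filled circles for ADR arrays and a line joining the pair. Red marks strong, grey middle and blue weak lymphomas; the strong ones start at or below 3.48 for Ifit1 and 5.32 for Usp18 but reach 6.65 untreated for Rtp4 (3769), 5560 and 403 of the weak group start above every strong lymphoma in all 3 panels, and 9583 and 2949 stay low for Ifit1 after ADR (4.73 and 3.39).

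The weak group was mixed. Lymphomas 403 and 5560 had high levels before treatment (means over the 3 genes of 8.61 and 7.20), and after ADR 5560 stood at 9.09 and 403 at 8.13. Lymphomas 6054, 9583 and 2949 had untreated means of 5.19, 4.15 and 4.38 and ADR means of 6.55, 5.46 and 4.21, which after ADR lie below the lowest strong lymphoma (6.56, in 1570), 6054 only just. The untreated mean of 6054 was above the strong range of 3.72 to 4.91, that of 9583 and 2949 within it. A small score thus went with a high starting level in 403 and 5560 and with low levels in both arrays in 9583 and 2949, with 6054 between them.

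A wider list held 57 further interferon-stimulated genes beside the 3 that made the score (60 of 64 listed genes were measured). The mean log2 level of these 57 genes before treatment was 7.06, 6.99, 7.02, 6.69 and 6.81 in the strong lymphomas, 7.89, 7.03, 7.12 and 7.20 in the middle and 7.81, 7.17, 6.90, 6.92 and 8.08 in the weak. After ADR it was 8.64, 7.93, 7.85, 7.72 and 7.90 in the strong, 9.09, 8.02, 8.11 and 8.01 in the middle and 8.54, 7.47, 7.24, 6.88 and 7.70 in the weak lymphomas. Lymphoma 403 began with the highest untreated level and ended below its own start and, like 6054, 9583 and 2949, below every strong lymphoma, whereas 5560 ended above all but 3769 of them. The strong and middle lymphomas all ended higher than they began.

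The median change of the 57 genes was 0.98 in the strong, 1.01 in the middle and 0.17 in the weak group, against -0.01, 0.00 and -0.00 over all 18193 genes. On these genes the middle lymphomas were thus as high as the strong ones, and the weak group alone stood lower. Ranking the lymphomas by the median change of the 57 genes instead of the 3 kept 2 of the 5 strong lymphomas (3769 and 1570) and 4 of the 5 weak ones, with 5766 taking the place of 5560. The name strong responder therefore describes these 5 lymphomas by their Ifit1, Rtp4 and Usp18, and does not mark them off from the middle set on the wider list.

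The difference in mean change, strong minus weak, was above 0 for 55 of the 57 genes, with a median of 0.79, against 48.2% of all genes and a median of -0.01. The exceptions were Isg20, an exonuclease, at -0.03, and Ifi203, a member of the interferon-inducible p200 family, at -0.04. The change was above 0 in all 5 strong lymphomas for 43 of the 57 genes (12.9% of all genes) and in all 5 weak lymphomas for 4 (9.91% of all genes). No member was below 0 in all 5 strong lymphomas (11.3% of all genes) and 1 was in all 5 weak ones (8.83% of all genes). For 6 of the 57 genes every strong lymphoma had a larger change than every weak one, and for none did the reverse hold. Over all genes the groups did not overlap for 0.44% with the strong group higher and 0.341% with it lower. Since these genes respond with the ones that made the groups, nothing further is read from these shares.

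Rsad2 (viperin), an antiviral enzyme, was among the 6. Its change was 4.48, 2.57, 2.75, 1.87 and 1.38 in the strong lymphomas and 1.36, 0.89, 0.95, -0.34 and -0.06 in the weak. Strong 1570 and weak 5560 were next to each other in this order. The untreated level was 5.65 ± 0.58 (SD, n = 5) in the strong, 7.16 ± 1.24 (n = 4) in the middle and 7.16 ± 1.45 in the weak group.

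Parp12, an interferon-inducible ADP-ribosyltransferase, had changes of 2.41, 2.38, 2.07, 2.63 and 1.28 in the strong and 0.79, 1.21, 0.45, 0.45 and -1.12 in the weak lymphomas. Oas1a, an oligoadenylate synthetase that triggers RNA decay and whose promoter stretch is printed above, had changes of 3.03, 1.70, 1.72, 1.31 and 1.41 against 1.15, 1.00, 0.68, 0.01 and -0.85. For both genes the groups were separated by a narrow gap, between 1570 or 3594 and the highest weak lymphoma. Slfn2, a Schlafen family member, had changes of 3.15, 2.22, 2.45, 1.93 and 1.74 against 1.39, 1.64, 1.40, 1.22 and -0.30. Slfn2 was thus also above its untreated level in 4 of the 5 weak lymphomas.

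Irf9, the DNA-binding subunit of the interferon-activated factor, had changes of 1.39, 1.21, 1.52, 0.90 and 1.41 in the strong and 0.11, 0.41, 0.04, 0.06 and -0.50 in the weak lymphomas. Its untreated level was 6.72 ± 0.13 (SD, n = 5) in the strong and 7.51 ± 0.85 in the weak group, and its ADR level 8.0 ± 0.32 and 7.53 ± 0.64. In the weak group as a whole Irf9 was therefore level with its start. Mx2, of the Mx family of GTPase genes, had changes of 0.88, 0.63, 0.51, 0.63 and 0.59 against 0.11, 0.25, 0.00, -0.27 and -0.34. This was a small contrast with little spread among the strong lymphomas.

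Mx1, the related GTPase, and Oasl2, an oligoadenylate synthetase-like protein, had larger differences with overlapping groups. Mx1 had changes of 3.23, 3.32, 1.45, 0.78 and 3.65 in the strong and 1.53, 0.10, 0.39, 0.25 and -1.29 in the weak lymphomas. Oasl2 had changes of 4.74, 2.49, 3.05, 2.79 and 1.95 against 2.06, 1.46, 0.36, -0.43 and 0.14. Weak 5560 reached into the strong range for both genes. None of the 60 genes had ADR levels that did not overlap, and none had untreated levels that did not overlap.

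**Figure D2:**
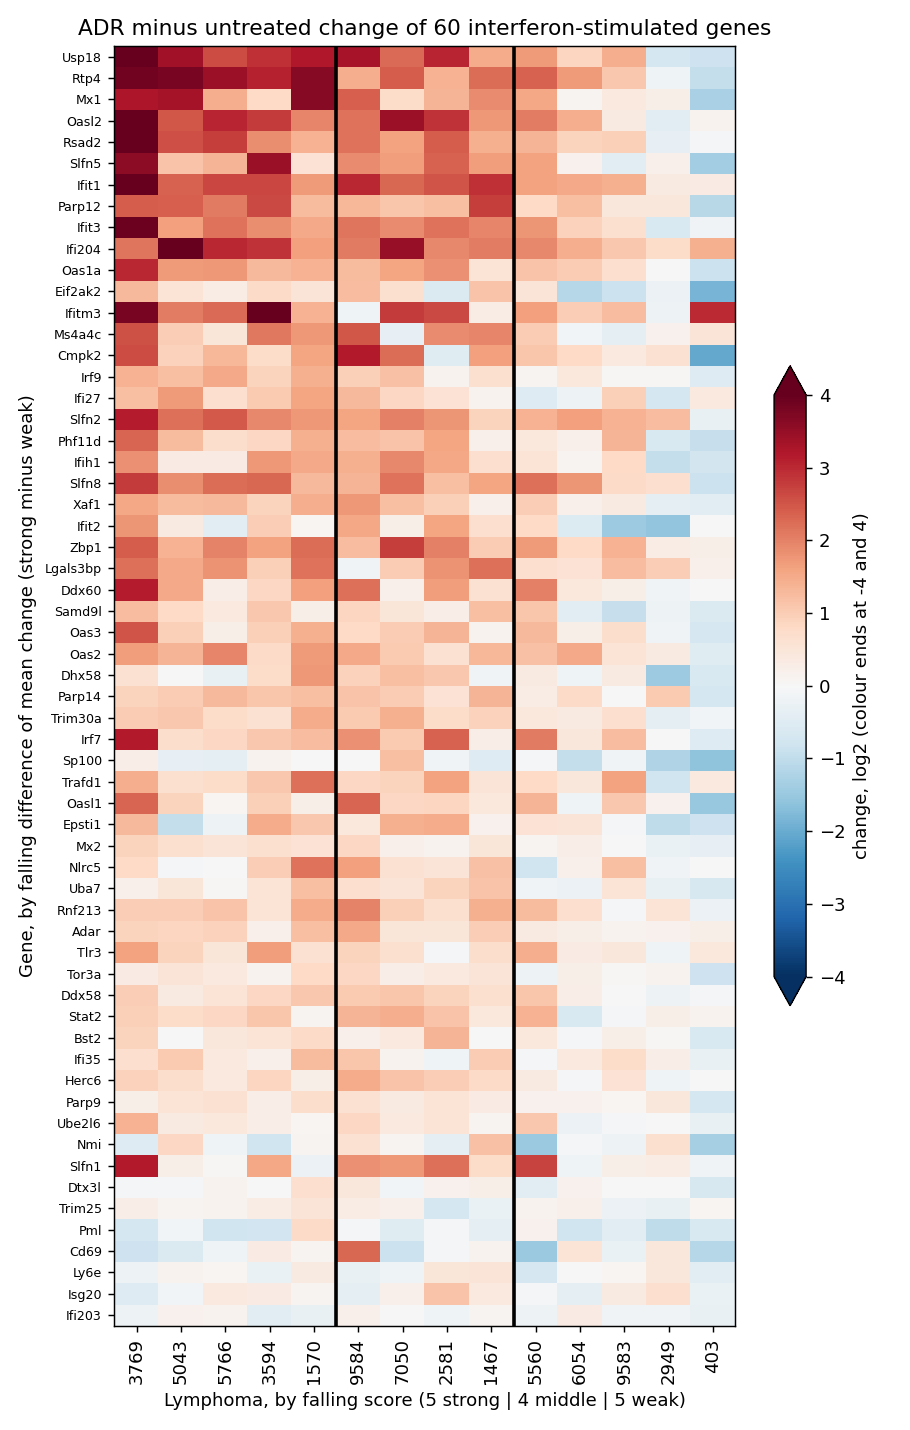
ADR minus untreated change (log2, colour, ending at -4 and 4) of 60 interferon-stimulated genes (rows, ordered by the difference strong minus weak) in 14 lymphomas (columns, ordered by score, with black lines between the strong, middle and weak sets). The upper rows are red across the strong and middle columns and pale or blue in 2949 and 403; the groups did not overlap for 9 of the 60 genes, the 3 that made the score among them.

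Of the 30 list members with more than 1 probe set, 23 had a difference above 0 on all of them. Leaving out 403 and 5560, the no-overlap count among the 57 genes went from 6 to 21 and that over all genes from 80 to 345 with the strong group higher and from 62 to 506 with it lower. Among the 57 genes it was 18 without 5560 alone, 11 without 3594 and 10 without 9583. Over all genes, leaving out any 1 of the 10 lymphomas gave 124 to 193 with the strong group higher and 99 to 164 with it lower. In the untreated arrays the strong group was lower for 50 of the 57 genes (median -0.32), against 48.1% of all genes. Without 403 and 5560 it was lower for 29 of them (median -0.0028), against 8980 of all 18193 genes. The lower untreated interferon level of the strong group thus rests on those 2 weak lymphomas. The same 2 lymphomas had the largest increases of the fibroblast list after ADR (list means of 4.09 in 403 and 3.95 in 5560, against 0.02 to 2.62 elsewhere), and the part of the feeder cells in these values was not tested.

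The interferon genes themselves stood near the low end of the scale in both groups. The 9 measured members had a mean untreated level of 3.84 ± 0.09 (SD, n = 5) in the strong and 3.82 ± 0.06 in the weak group, and mean changes of -0.04 ± 0.11 and -0.01 ± 0.15. Ifnb1, interferon beta, had changes of 0.11, 0.12, -0.23, -0.73 and -0.32 in the strong and -0.18, 0.24, -0.03, 0.60 and -0.35 in the weak lymphomas. Its signs were mixed in both groups. Its untreated level was 4.43 in the strong and 4.12 in the weak group, a difference of 0.31 ± 0.16 (SE; adjusted p = 1.00, limma with Benjamini-Hochberg adjustment over 18193 genes). No member of the list was without overlap between the groups.

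Among receptors and signal carriers, 19 of 22 measured genes had a larger mean change in the strong group (median difference 0.27, with 48.2% of all genes larger), and 1, Irf9, did not overlap (0.44% of all genes in that direction). The same shares of all genes apply to the counts of sensors, GTPases, chemokines, antigen presentation genes and immune ligands that follow. Ifnar1 had mean changes of 0.42 ± 0.32 (SD, n = 5) and 0.12 ± 0.18, and Ifnar2 of 0.40 ± 0.84 and 0.19 ± 0.40, in the strong and weak groups. Their untreated levels differed by -0.07 ± 0.20 (SE) for Ifnar1 and -0.06 ± 0.37 for Ifnar2, and neither passed the limma test (adjusted p = 1.00 for each). Stat2, the partner of Irf9, had mean changes of 0.75 ± 0.38 in the strong, 1.10 ± 0.47 in the middle and 0.22 ± 0.73 in the weak group. The phosphatase Ptpn6, which dampens cytokine receptor signals, had changes of 1.35, 0.34, -0.14, 1.35 and 0.09 in the strong and -0.10, -0.29, 0.31, 0.07 and -1.62 in the weak lymphomas. The groups overlapped for Stat2 and Ptpn6. Irf9 and Stat2 are also members of the wider interferon-stimulated list, so the count of 19 is not separate from that list.

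Among the 31 measured nucleic acid sensing genes, 24 had a larger mean change in the strong group (median difference 0.36; 48.2% of all genes), and 1, the inflammasome DNA sensor Aim2, did not overlap (0.44% of all genes; mean changes -0.07 ± 0.18, SD, n = 5, and -0.72 ± 0.19). Ifi204, a p200 family DNA sensor, had changes of 2.15, 4.17, 3.01, 2.88 and 1.64 in the strong and 1.93, 1.44, 1.09, 0.72 and 1.43 in the weak lymphomas. It was above 0 in all 10. Ifih1 (MDA5), a sensor of long double-stranded RNA, had changes of 1.84, 0.32, 0.33, 1.74 and 1.51 against 0.55, 0.12, 0.79, -0.95 and -0.73. Ddx58 (RIG-I) had mean changes of 0.75 ± 0.30 (SD, n = 5) and 0.22 ± 0.53, and Irf7, which amplifies interferon production, of 1.41 ± 1.01 and 0.65 ± 1.02. For these 4 genes the groups overlapped. Irf7, Ddx58, Ifih1, Ifi204, Dhx58, Zbp1, Tlr3 and Adar are also members of the wider interferon-stimulated list. Each had a larger mean change in the strong group, so the count of 24 is not separate from that list.

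Adaptors and the cytosolic DNA pathway had differences smaller than their spread between lymphomas. Cgas, which makes the cyclic dinucleotide that activates Sting1, had mean changes of 0.15 ± 0.39 (SD, n = 5) in the strong and -0.05 ± 0.64 in the weak group. Sting1 had mean changes of -0.04 ± 0.49 and -0.27 ± 0.61, Mavs, the adaptor of the RNA sensors, of 0.06 ± 0.30 and 0.30 ± 0.48, and Irf3 of -0.03 ± 0.36 and -0.06 ± 0.21. Their untreated levels differed by -0.31 ± 0.25 (SE) for Cgas, 0.16 ± 0.28 for Sting1, 0.21 ± 0.21 for Mavs and 0.12 ± 0.15 for Irf3, and none passed the limma test (adjusted p = 1.00 for each).

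Interferon-inducible GTPases, which attack the membranes of intracellular microbes, had a larger mean change in the strong group in 10 of 11 cases (median difference 0.62). Mx1 and Mx2 are among these 10 and are also members of the wider interferon-stimulated list. Gbp2 had changes of 1.63, 2.31, 0.66, 1.42 and 1.35 in the strong and 0.63, 0.63, 0.89, -1.48 and 0.85 in the weak lymphomas, and its mean change in the middle set, 2.04, was above both. Of the 8 induced chemokines 5 had a larger change in the strong group. Cxcl10, which attracts T cells, had changes of 2.96, 0.61, 0.59, 0.68 and -0.18 against 1.93, -0.57, -0.29, -0.64 and -0.41. A single lymphoma led each group for Cxcl10, 3769 and 5560. Ccl5 had mean changes of 0.63 ± 1.15 (SD, n = 5) and 0.18 ± 0.82.

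Antigen presentation genes also had mostly larger changes in the strong group. The MHC class I list had a mean change of 0.18 ± 0.25 (SD, n = 5) in the strong and -0.01 ± 0.21 in the weak group, and 14 of its 17 members had a larger mean change in the strong one. Nlrc5, the class I transactivator, had mean changes of 0.78 ± 0.89 and 0.09 ± 0.72, and is also a member of the wider interferon-stimulated list. The MHC class II list had mean changes of -0.18 ± 0.43 and -0.49 ± 0.48, with 13 of 14 members larger in the strong group (median difference 0.26). Among immune ligands 12 of 15 had a larger mean change in the strong group and 1, Pdcd1lg2 (PD-L2), did not overlap (0.44% of all genes), at 1.36, 0.48, 0.29, 2.18 and 0.17 in the strong against -0.17, 0.06, -0.64, -0.10 and -0.01 in the weak lymphomas. Cd274 (PD-L1), the other ligand of the PD-1 receptor, had mean changes of 1.63 ± 0.47 and 0.89 ± 1.15, with overlap.

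Of the lists of the wider response to ADR, cell cycle and secretory genes had similar group means of the change. Lysosomal and p53 target genes had larger means in the strong group. For each of these lists single lymphomas overlapped between the groups. The 37 G2/M genes had mean changes of -2.09 ± 0.59 (SD, n = 5) in the strong and -2.06 ± 1.04 in the weak group, with 37 of 37 below 0 in all 5 strong and 36 in all 5 weak lymphomas (11.3% and 8.83% of all genes). The senescence-associated secretory phenotype (SASP), as a list of 36 measured genes, had mean changes of 1.32 ± 0.50 and 1.39 ± 1.12. The weak mean rests on 5560 (2.30) and 403 (2.87). In 6054, 9583 and 2949 the list changed by 0.72, 0.71 and 0.35, below the lowest strong lymphoma (0.77, in 1570). The 29 p53 targets had mean changes of 0.62 ± 0.38 and 0.33 ± 0.63. Of these, 21 of 29 were larger in the strong group (median difference 0.40; 48.2% of all genes). The change was above 0 in all 5 strong lymphomas for 15 and in all 5 weak ones for 2 (12.9% and 9.91% of all genes). The list changed by 0.71, 0.44, 0.13, 0.66 and 1.17 in the strong and 0.59, -0.18, 0.97, -0.49 and 0.78 in the weak lymphomas. Only 6054 and 2949 of the weak group lay below the strong range. Cdkn1a, the cell cycle inhibitor p21, had mean changes of 1.27 ± 0.68 and 0.87 ± 0.76. Myc had mean changes of -0.80 ± 0.43 and -0.87 ± 1.07. Lysosomal genes had a larger mean change in the strong group in 27 of 29 cases (48.2% of all genes), with mean changes of 1.04 ± 0.33 and 0.62 ± 0.28, and Ctsd, a protease of the lysosome, had changes of 2.95, 1.91, 1.93, 2.69 and 1.63 against 1.37, 0.88, 1.42, 0.35 and 2.21.

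Most macrophage genes had a larger mean change in the strong group, although the list means overlapped between the groups. The 23 measured members had a mean change of 2.39, 1.95, 1.68, 2.12 and 1.29 in the strong and 1.15, 0.71, 1.68, 0.55 and 0.99 in the weak lymphomas. Of the members, 19 of 23 had a larger mean change in the strong group (median difference 1.09; 48.2% of all genes). The change was above 0 in all 5 lymphomas for 17 members in the strong and 13 in the weak group (12.9% and 9.91% of all genes). Itgam (CD11b), an integrin of myeloid cells, had changes of 1.87, 2.54, 1.81, 2.40 and 1.23 against 1.07, -0.12, 0.66, -0.31 and -0.42, and Ms4a6d, a myeloid membrane protein, of 3.50, 4.02, 3.41, 3.78 and 3.48 against 1.31, 1.84, 2.86, 2.16 and 1.93. The groups did not overlap for these 2 genes of the 23 (0.44% of all genes). The count was 5 without 1570 (1.06% of all genes), 5 without 9583 (1.04%) and 3 without both 403 and 5560 (1.90%). Fcgr1, an immunoglobulin receptor, had changes of 3.17, 3.79, 2.98, 2.60 and 0.26 against 1.58, -0.15, -0.49, 0.38 and 0.33. The complement genes C1qa, C1qb and C1qc went the other way, with differences of mean change of -0.25, -1.24 and -0.90.

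The mean untreated level of the macrophage list ranged from 5.13 to 7.29 in the strong and from 5.83 to 8.44 in the weak group, and the ADR level from 6.42 to 9.53 and from 6.73 to 9.59. Untreated, 21 of 23 members were lower in the strong group (median -0.91; 48.1% of all genes). The median was -0.54 without 1570 and -0.58 without 5560. Without both 403 and 5560 it was -0.22, with 16 members lower, against 8980 of all 18193 genes. The smallest unadjusted p was 0.0507, for Trem2, in the limma fit. Csf1r, the receptor that defines the lineage, measured 7.63 in the strong and 8.95 in the weak group untreated. In the strong and weak groups, untreated Cd163 (2.92 and 2.76) and Mrc1 (3.78 and 3.97) were near the low end of the scale. Adgre1 (6.16 and 7.79) and Marco (5.04 and 6.07), also macrophage genes of the list, were higher. Macrophages themselves express many interferon-stimulated genes, and their part in the interferon values was not tested.

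The fibroblast list of 25 genes was chosen for the NIH 3T3 feeders. No array held feeder cells alone, so their expression of these genes was not tested. The list had a mean change of 1.72 ± 1.01 (SD, n = 5) in the strong and 2.22 ± 1.68 in the weak group. The change was above 0 in all 5 lymphomas for 18 of its members in the strong and 20 in the weak group (12.9% and 9.91% of all genes). Untreated levels averaged 5.10 to 5.65 and 5.23 to 5.91. Col1a1, a fibrillar collagen, had changes of 1.85, 0.66, 3.91, 2.67 and 0.19 in the strong and 5.25, 1.89, 1.43, 0.80 and 5.70 in the weak lymphomas, 5560 and 403 being the highest. B-lineage genes averaged 9.26 ± 0.44 untreated in the strong and 8.98 ± 0.20 in the weak group, so both had markers of the labelled cell type on average. Cr2 (4.46 and 4.14), Fcer2a (4.71 and 4.01) and Pax5 (5.72 and 5.56) were the lowest of the 18 measured members. The list had mean changes of -0.29 ± 0.44 and -0.70 ± 0.51.

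Secreted factors of the SASP went in both directions. Il6, an inflammatory cytokine, had changes of 2.96, 3.74, 1.74, 1.82 and 2.15 in the strong and 1.74, 1.24, 1.62, 0.66 and 2.03 in the weak lymphomas, and Il1b of 1.97, 4.38, 2.81, 1.79 and 0.89 against 1.68, 1.45, 0.55, 1.56 and -0.66. Both were larger on average in the strong group, with overlap. Csf3, the granulocyte growth factor, was larger on average in the weak group, at 0.66, 0.73, 0.44, 0.07 and -0.04 against 2.44, 0.62, 0.12, 0.10 and 4.87, the high values being those of 5560 and 403. Mmp13, a collagenase, had mean changes of 1.94 ± 1.27 (SD, n = 5) and 2.95 ± 1.61. Of the 36 members 15 had a larger mean change in the strong group, below the 48.2% of all genes.

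Ms4a1 (CD20), a surface protein of mature B cells, had changes of 2.17, 2.95, 0.45, 0.62 and 1.17 in the strong and -0.76, -1.78, 0.88, -1.95 and -0.54 in the weak lymphomas. It was above 0 in all 5 strong lymphomas and, of the weak ones, in 9583 alone, whose value lay inside the strong range. Chac1, a glutathione-degrading enzyme of the stress response to unfolded proteins, had changes of -0.40, 0.07, 0.77, 0.09 and -0.79 against 2.85, 1.08, 0.74, 1.10 and 2.75. The weak lymphomas 5560 and 403 were again the highest. Ptgs2, which makes prostaglandins and is a target of NF-kB, had changes of 5.81, 2.73, 1.29, 6.43 and 2.59 against 5.45, 1.45, 2.27, -0.14 and 3.58, with wide overlap.

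**Figure D3:**
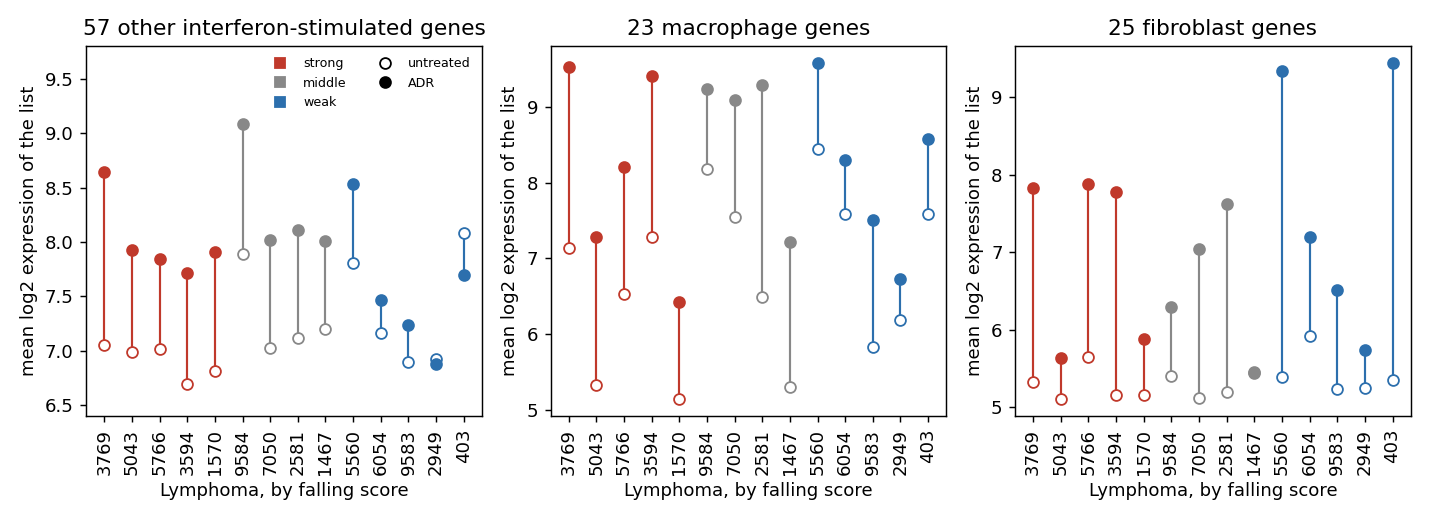
Mean log2 level of 57 other interferon-stimulated genes, 23 macrophage genes and 25 fibroblast genes (vertical axes) in each lymphoma, ordered by falling score, untreated as open and ADR as filled circles, red for strong, grey for middle and blue for weak. In the left panel the strong lymphomas start between 6.69 and 7.06; in the right panel 5560 and 403 have the longest lines (3.95 and 4.09).

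**Figure D4:**
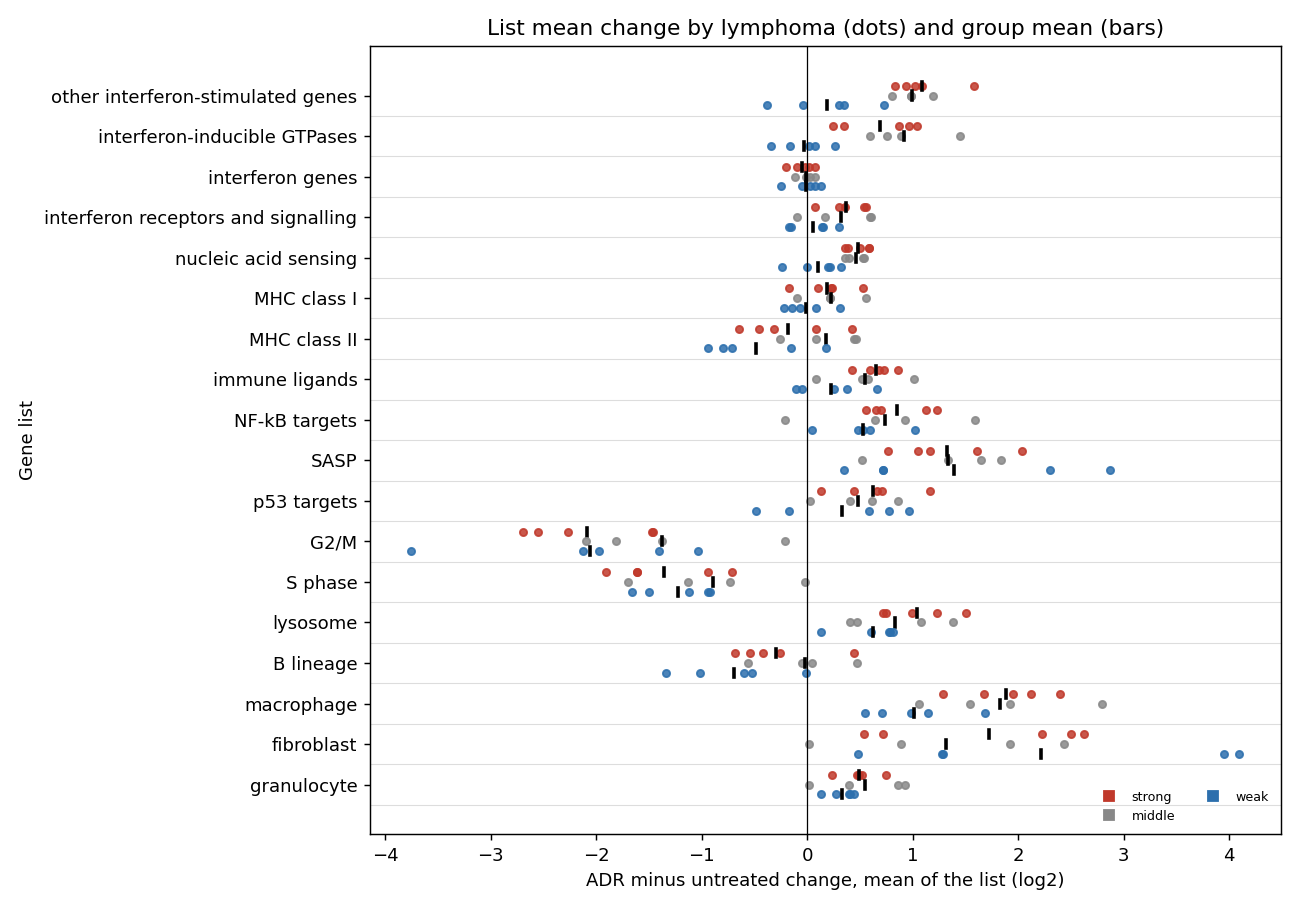
ADR minus untreated change (log2, horizontal axis) of the mean of 18 gene lists, with a dot per lymphoma, red for strong, grey for middle and blue for weak, and a black bar at each group's mean. Strong and middle dots overlap for the 57 other interferon-stimulated genes (means 1.09 and 0.99) while the weak mean is 0.19, and G2/M shows similar strong and weak means (-2.09 and -2.06).

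Outside the interferon lists, the genes with the largest differences and no overlap were chosen for that difference and are given as a description. Ifitm6, an interferon-induced transmembrane protein family member, had changes of 2.91, 3.93, 2.64, 3.61 and 1.65 in the strong and 0.67, 0.83, -0.26, 0.71 and 0.38 in the weak lymphomas. Fyb, an adaptor of immune receptors, had changes of 2.51, 2.33, 1.82, 3.13 and 2.15 against 0.81, 0.69, 1.49, 0.14 and -0.58. In the other direction Cap1, an actin regulator, had changes of 1.29, 0.04, 1.36, 1.50 and -0.84 in the strong and 2.23, 1.65, 1.88, 1.67 and 2.25 in the weak group. Lrp8, a lipoprotein receptor, had changes of -0.58, -0.62, -0.59, -0.19 and -1.44 against 0.87, 0.64, 0.56, 0.38 and -0.14. The differences below 0 were smaller than those above it, -1.27 for Cap1 against 2.48 for Ifitm6.

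The other higher genes were Rin2, a Rab exchange factor (difference 1.78), Wfdc21 (1.76), the ubiquitin ligase Marchf1, which lowers surface MHC class II (1.55), Trim30d (1.52), the kinase C substrate Marcks (1.42) and the inhibitory receptor Pirb (1.39). The other lower ones were the signalling protein Bcr (-1.05), Grasp (-0.78), Zfyve21 (-0.76), the ubiquitin ligase scaffold Cul4a (-0.64), the mitochondrial ribosomal protein Mrps6 (-0.63), Uqcc2, an assembly factor of respiratory complex III (-0.59), Supt3 (-0.55) and the elongation factor subunit Nelfe (-0.53). Supt3 had changes of -0.41, -0.37, -0.34, -0.44 and -0.35 in the strong and 0.19, 0.23, 0.24, -0.07 and 0.23 in the weak lymphomas, a small shift with little spread.

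Before treatment no gene outside the interferon-stimulated lists told the groups apart at the threshold. Over 14 untreated arrays, limma called 0 of these 18116 genes at an adjusted p under 0.05 (0%), adjusted over all 18193 genes. Of the 18116 genes, 292 were higher and 292 lower in the strong group at an unadjusted p under 0.05 (3.22%). Levels of the groups did not overlap for 0.253% of all genes with the strong group higher and 0.346% with it lower. The genes with the smallest p in each direction were Pars2, a mitochondrial prolyl-tRNA synthetase, 0.53 ± 0.10 (SE) higher, and Dda1, a component of ubiquitin ligases, with a difference of -0.42 ± 0.09, and neither passed (adjusted p = 1.00).

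Some untreated differences were large without passing. Klf6, an early response transcription factor, measured 6.91, 6.81, 7.46, 7.02 and 6.95 in the strong and 8.96, 8.27, 7.95, 7.68 and 7.54 in the weak lymphomas, a difference of -1.05 ± 0.24 (SE, adjusted p = 1.00, limma). Dusp1, a phosphatase of stress kinases, measured 7.32, 6.54, 8.03, 7.18 and 7.03 against 9.17, 9.0, 7.60, 8.79 and 8.12, a difference of -1.32 ± 0.36. Ada, adenosine deaminase, measured 8.24, 7.04, 7.67, 7.42 and 8.58 against 6.95, 7.03, 6.19, 6.66 and 6.30, a difference of 1.16 ± 0.27. Klf6 and Ada did not overlap between the groups and Dusp1 did. The remaining genes of the 20 with the smallest p had differences of -0.51 to 0.67.

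**Figure D5:**
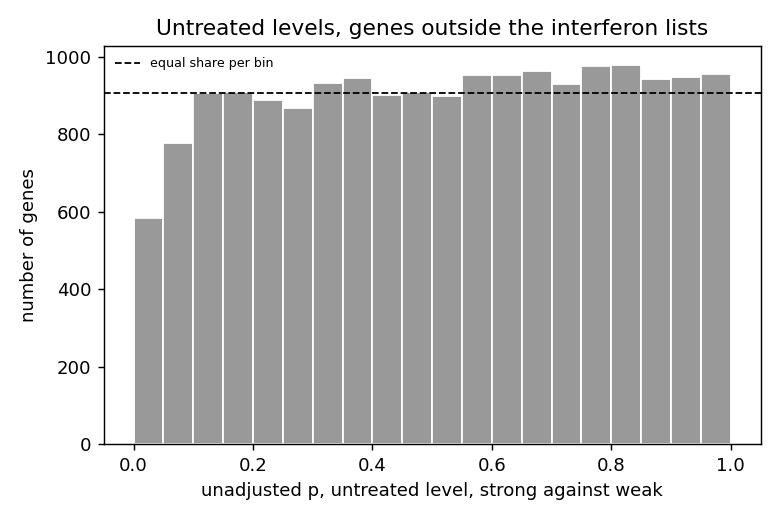
Number of genes (vertical axis) by unadjusted p of the untreated level, strong against weak (horizontal axis, bins of 0.05), for genes outside the interferon-stimulated lists, with a dashed line at an equal share per bin. The first bin holds 584 genes and the last 955, so small p-values are the least frequent.

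G2/M genes were higher before treatment in the strong group for 36 of 37 members (median 0.32), against 51.9% of all genes. Of the 37, 5 had an unadjusted p under 0.05 in the limma fit (3.22% of the genes outside the interferon-stimulated lists). None passed after adjustment. The untreated list mean was 9.37 to 9.90 in the strong lymphomas. Weak 6054 (9.41), 2949 (9.57) and 403 (9.77) lay within that range, and only 5560 (8.66) and 9583 (9.04) below it. Among untreated arrays, those of 4 strong and 2 weak lymphomas had a high level of Xist, the RNA that coats the silenced X. No measure of array quality passed a test between the groups. The difference between 3′ and 5′ signal of actin and Gapdh and the array median gave exact permutation p-values of 0.143 to 1 over 252 splits (two-sided, smallest possible 0.00794; adjusted 0.690 to 1). The ADR array of strong lymphoma 1570 stood apart, with 3′ minus 5′ signals of 0.92 for actin and 0.92 for Gapdh. Without 1570 the no-overlap count among the 57 interferon genes was 8, and over all genes it was 193 with the strong group higher and 135 with it lower.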

How the data were processed

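The deposited values are log2 expression values of 45101 probe sets on 28 arrays, made by the authors with RMA and Partek 6.5 per the submitters' processing notes. RMA corrects background, normalizes between arrays and compresses changes of dim probe sets. The genome build is not given in the sources used here. Probe sets were named from the array's annotation of 2016, and those with several genes (932), no listed gene (9160) or a control role (64) were left out. The brightest probe set stood for each of 18193 genes. Changes are ADR minus untreated within a lymphoma, paired by the lymphoma identifier. Untreated levels were fitted with limma 3.58.1 in R 4.3.3 (3 groups, 14 arrays) and p-values adjusted by Benjamini-Hochberg over all genes. The fit was tested on simulated data. The 77 genes of the interferon-stimulated, GTPase and chemokine lists stayed in the fit and its adjustment but no p is given for them, since their untreated levels move with the score.

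Members, lists and rules were chosen with earlier results of these data known. Of 638 listed genes in 28 lists, 587 were measured. Some genes belong to more than 1 list, so counts from different lists are not independent. Named genes were the score genes, up to 4 per list with the largest difference of change, the 10 largest each way without overlap at a mean of at least 6, the 10 smallest untreated p each way, and a fixed set. For brevity not every list example is given, and 1 item of the fixed set is not reported here. Isg20, Ifi203, the C1q genes, Csf1r, Cd163, Mrc1, Adgre1, Marco, Trem2, Cr2, Fcer2a, Pax5 and the members without overlap outside these ranks were named after their values were seen.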

Additional observations from a re-analysis of the deposited data

Results flagged for a closer look

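Within groups of 5 lymphomas, the highest or lowest value was compared with its nearest neighbour by Dixon's ratio at the 95% critical value. Of 234 such comparisons 12 stood apart, and chance alone marks about 1 in 20. Lymphoma 3769 stood above the other strong ones for the changes of Cxcl10 (2.96), Irf7 (3.16) and Oas1a (3.03). Lymphoma 5043 stood below them for Aim2 (-0.38), and 1570 above them for the mean change of the pre-B recombination list (0.32). In the weak group 5560 stood apart for Cxcl10 (1.93) and the pre-B list (-1.24), 2949 for Gbp2 (-1.48) and Supt3 (-0.067), 403 for Slfn2 (-0.30), and 6054 for Ifi203 (0.32) and for the untreated mean of the fibroblast list (5.91).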

How the results depend on the processing

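Over all genes the changes did not overlap for 80 genes with the strong group higher and 62 with it lower, and for 6 of the 57 interferon genes. These 3 counts depend on how many lymphomas are set against each other. They were 324, 286 and 20 with 4 against 4 lymphomas, 16, 12 and 3 with 6 against 6, and 2, 5 and 1 with 7 against 7. Within the 11 earlier-series lymphomas (4 against 4) they were 282, 222 and 11, and without 403 and 5560 they were 345, 506 and 21. Leaving out 1 lymphoma of the 10 gave 124 to 193, 99 to 164 and 6 to 18. The lower count was 96 with the score from the other interferon genes, 40 with centred arrays and 26 among genes with a mean of at least 6. The higher count was 81 with centred arrays, so that centring moved the balance towards higher calls. Fewer lymphomas or genes lower or raise such counts by construction, and the cause of the other shifts was not tested. The median difference of the 57 genes stayed above 0 under all alternatives run, at 0.66 to 0.98, and limma called 0 genes in untreated arrays under each. The score from the other interferon genes ranked the lymphomas by these same 57 genes. The other alternatives grouped them by the 3 score genes, which respond with the 57. The sign of this difference is therefore no support for the contrast. No paired analysis was possible because the tested levels come from 1 untreated array per lymphoma. Changes of dim probe sets are compressed, and each lymphoma has 1 pair.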
